A study of Mus musculus with 36 samples.

Results

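The transcriptome of wild-type (WT) CD4+ T cells before and after an allogeneic response was taken from 6 RNA-seq libraries of the HP1a mouse line, out of the 36 of the study. They were chosen by their labels alone as 3 libraries of naive cells and 3 of conventional T cells recovered from grafted hosts (Tconv). The line carries a germ-line deletion of Cbx5, the gene of the heterochromatin protein HP1α, made by crossing floxed mice with a CMV-cre strain, and the WT cells came from littermates with both Cbx5 alleles intact. The mice had a mixed 129/Sv and C57BL/6 background and were sex-matched and 6 to 12 weeks old. The study states that males were used with its sequencing analyses in mind. Naive cells were splenic CD4+ T cells isolated with a bead kit for naive cells, which carry little CD44. Tconv began as such naive cells, which were injected without any regulatory T cells (Treg) into lethally irradiated B6 or CD45.1+ B6 hosts with equal parts of B6 bone marrow and semi-allogeneic B6D2F1 bone marrow, both depleted of T and NK cells. They were sorted from the spleen 3 weeks later as CD4+ H-2Kb+ H-2Kd- cells that carried CD45.2 but neither CD45.1 nor Thy1.1, and with the T cell receptor chain Vβ6, which recognises a superantigen carried by the semi-allogeneic marrow. The comparison thus spans the whole path from naive cell to allospecific effector cell, and antigen, expansion in an irradiated host, the Vβ6 sort and the isolation method all differ between its groups and cannot be told apart. The labels do not say how many animals a library holds, so that p-values measure the spread between these libraries.

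When a naive CD4+ T cell meets antigen it leaves quiescence, divides, and takes up an effector programme under lineage-defining transcription factors: T-bet for Th1 cells making interferon-γ and GATA3 for Th2 cells making IL-4, while Th17 cells make IL-17. At the same time it loses the receptors that guide naive cells through lymph nodes and gains receptors for inflamed tissue. In grafts across a histocompatibility barrier, Th1 cells with cytotoxic molecules are a well-known source of rejection and graft-versus-host disease.

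The 6 libraries held 37029477 to 63042165 estimated counts and 21218 to 22936 detected genes. Levels are given as CPM (counts scaled to a common library size), scaled between libraries by TMM, in the order replicate 1, 2 and 3. They are not divided by transcript length and are compared between libraries, not between genes. Genes were called at an adjusted p under 0.05 where they also differed by more than 1 on the log2 scale. None of the 12 genes of T cell identity was called (median log2 fold change 0.27), and Cd4 lay at 714, 790 and 786 CPM in naive cells and at 1124, 1081 and 1030 CPM in Tconv. Markers of other cells were present at levels that differed between lists and groups. The 10 neutrophil markers summed to at most 0.481 CPM in a library, and Elane and Ltf were at 0 in all 6. The 12 macrophage markers summed to 98.7–126 CPM in Tconv and to 178–202 CPM in naive cells, mostly through Ctss, while Lyz2, a defining macrophage gene, was at most at 1.89 CPM. Of 10 macrophage markers tested, 3 were called higher in Tconv and 1 lower (median log2 fold change 0.63). The plasma cell and platelet lists summed to at most 1.23 and 1.19 CPM in a library. Erythroid transcripts summed to 39.5, 100 and 45.3 CPM in naive cells and to 1.92, 3.32 and 4.10 CPM in Tconv, and 5 of 7 tested were called lower. The B lineage list summed to 559–653 CPM in naive cells and to 154–218 CPM in Tconv. Only 3 of its 10 genes averaged at least 1 CPM in either group. Fcer2a, Blk and Vpreb3 had 52, 27 and 16 counts over the naive libraries and 3 each over Tconv, too few to carry these sums. The B lineage genes that carried them are not reported here. Of 5 B lineage genes tested, 3 were called lower and 1, not named here, higher (median log2 fold change -1.76). MHC class II genes summed to 50.7–56.2 CPM in naive cells and to 83.2–98.9 CPM in Tconv, and the dendritic cell list, carried by the interferon-induced Bst2 and by Itgax, to 43.6–48.8 and 110–116 CPM, with Flt3, Clec9a, Siglech and Cd209a at 0 in all Tconv. Of 7 MHC class II genes tested, 2 were called higher and 0 lower (median log2 fold change 0.50). Of 4 dendritic cell genes tested, 3 were called higher and 0 lower (median 2.40). Cd8b1 was at 19.8, 25.2 and 23.7 CPM in naive cells and at 4.99, 5.13 and 8.12 CPM in Tconv. The part of these cells in the results was not tested. As the libraries are bulk samples, fewer cells of a type and less of an RNA per cell cannot be told apart.

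Naive replicate 1 stood apart from the other naive libraries. Among 8761 genes that averaged at least 10 CPM, 162 lay over 2-fold above and 45 over 2-fold below both other naive libraries (1 CPM added to each level), against at most 3 in each direction for naive replicates 2 and 3 and at most 20 for any Tconv library. The list of early-response genes, which T cells switch on soon after stimulation, summed to 12214 CPM there and to 5268 and 5686 CPM in the other naive libraries. Naive WT cells of the HP1g line, scaled in their own fit, averaged 589 CPM of Nr4a1, 808 CPM of Cd69 and 769 CPM of Nfkbia. Naive replicate 1 was at 810, 741 and 901 CPM for these genes. Replicates 2 and 3 were at 83.7 and 70.6, 236 and 223, and 325 and 342 CPM. The HP1g means of Irf4 (10.4 CPM) and Egr1 (252 CPM) lay between. Which level is usual for naive cells was not tested. Naive libraries of this line without Cbx5 deviated from their group means together with the WT ones of the same number. The correlations were 0.593 for replicate 1 and 0.247 and 0.299 for replicates 2 and 3. Whether handling of naive replicate 1 had a part was not tested either. Values without it are given beside the genes and lists it moved most, save for genes left with at most 3 counts in naive cells. Over the whole comparison the count of genes called was 3702 with it and 4132 without it.

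Of 16027 genes tested, 3702 (23.1%) were called different between Tconv and naive cells (edgeR quasi-likelihood test with Benjamini-Hochberg adjustment over all genes tested). There were 2067 genes (12.9%) called higher in Tconv and 1635 (10.2%) called lower. Called genes of a list are read against these shares. Without a threshold on the fold change 7324 genes passed, and a test against a fold change of 2 left 2233. The median log2 fold change over all genes was -0.04, and scaling by library totals alone shifted it by -0.14, so that small shifts of whole gene families depend on the scaling. The change was lopsided at its far end. In Tconv 55 genes reached a mean of at least 5 CPM with at most 3 counts over all 3 naive libraries, whereas only 3 genes, Art4, Pid1 and Zdhhc14, named here after their values were seen, showed the opposite.

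**Figure D1:**
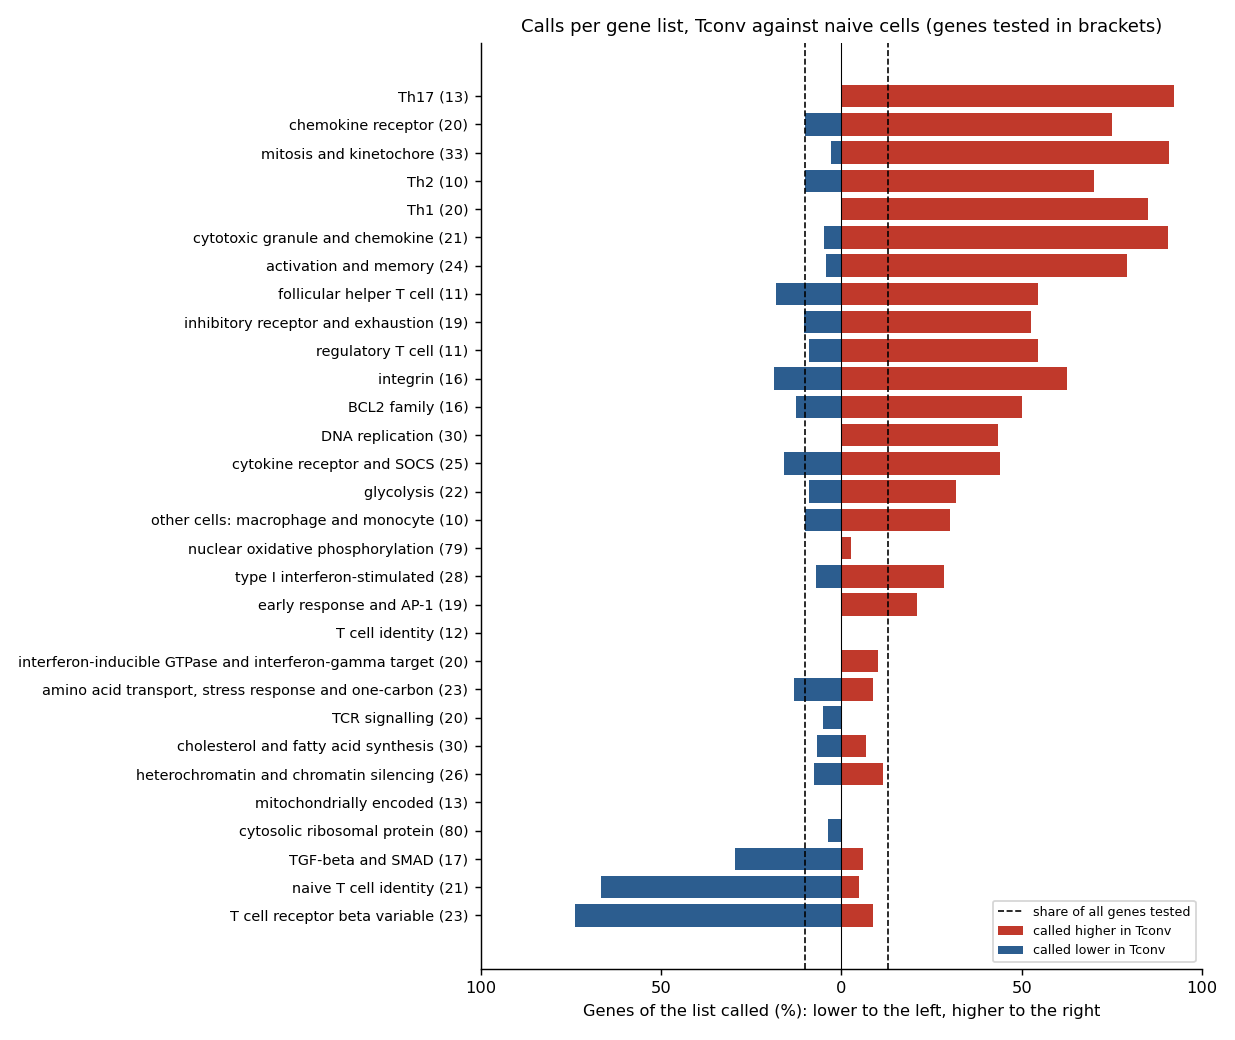
Share of genes called higher (red, to the right) and lower (blue, to the left) in Tconv for each gene list with at least 10 genes tested, in order of the list's median log2 fold change, with the number of genes tested in brackets. Dashed lines mark the shares over all genes tested, 12.9% higher and 10.2% lower, which the Th17, Th1, mitosis and cytotoxic lists exceed on the right and the naive identity list on the left.

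The naive programme was lowered in the homing receptor gene Ccr7 and in several of its transcription factors. Of 21 genes of naive T cell identity, 14 were called lower and 1 higher, with a median log2 fold change of -1.97. Ccr7 (chromosome 11, 99035022–99045911 of GRCm39), the receptor for lymph node chemokines, fell from 1467, 1132 and 1245 CPM to 71.2, 91.8 and 57.4 CPM, with a log2 fold change of -4.12 ± 0.20 (SE; adjusted p = 2.05e-06). Every naive library lay at least 10 times above every Tconv library.

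Among the transcription factors that hold T cells in a naive or memory-like state, Bach2 fell furthest, from 181, 135 and 139 CPM to 11.2, 10.1 and 10.0 CPM (log2 fold change -3.86 ± 0.14). Lef1 went from 1314, 1334 and 1343 CPM to 208, 237 and 261 CPM (-2.50 ± 0.11, adjusted p = 1.09e-06). Its relative Tcf7, which encodes TCF1, kept a larger part of its level, with 1675, 1975 and 1994 CPM in naive cells and 657, 645 and 577 CPM in Tconv (-1.59 ± 0.11, adjusted p = 1.19e-05). Foxp1, a keeper of quiescence, and Satb1, a chromatin organiser of thymocytes, were called lower as well (-2.10 and -1.30). Foxo1, which drives the homing genes, was called lower with all libraries (-1.08) but not without naive replicate 1 (-0.95). Il7r, the receptor for the survival cytokine IL-7, was at 587, 569 and 632 CPM in naive cells and at 561, 477 and 655 CPM in Tconv, with overlapping groups and no call (adjusted p = 0.633). S1pr1, the exit receptor of lymphoid organs, did not pass the fold threshold (-0.66 ± 0.21). Ccr9, a gut-homing receptor, was the member called higher (1.62 ± 0.23), from 5.64–8.62 CPM to 18.4–28.9 CPM.

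The lowest log2 fold changes among genes that averaged at least 20 CPM in naive cells belonged to genes of varied roles, of which Igfbp4 is a member of the naive identity list. Atp1b1, a subunit of the sodium pump, went from 157, 179 and 190 CPM to 1.70, 1.18 and 1.18 CPM (-7.02 ± 0.17, adjusted p = 7.1e-08). St8sia6, a sialyltransferase, went from 157, 204 and 205 CPM to 3.18, 1.72 and 1.38 CPM (-6.50 ± 0.31), and Cnn3, an actin-binding calponin, from 72.0, 73.9 and 72.0 CPM to 0.836, 1.18 and 0.880 CPM (-6.21 ± 0.16). Igfbp4, which binds insulin-like growth factors, dropped from over 1000 CPM in each naive library to 18.7, 21.3 and 16.2 CPM (-5.88 ± 0.14). Ampd1, Adh1, Arhgap29, Xkrx and Sox4 completed the group with log2 fold changes from -7.14 to -6.03. Plaur, the urokinase receptor, had the lowest value (-8.41 ± 1.38) but rested in part on naive replicate 1, with 55.3, 6.81 and 8.48 CPM in naive cells against at most 0.129 CPM in Tconv; it was called without that library too (-6.80, adjusted p = 1.73e-05).

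At the other end stood genes that naive cells hardly expressed. Ifitm1 (chromosome 7, 140546316–140549743), an interferon-induced membrane protein, had no count in any naive library and 470, 512 and 556 CPM in Tconv, at least 29593-fold higher against a floor of 3 counts over the naive group. This floor covers counting error only. Ifitm2, its neighbour in the same family, rose from 0.0567, 0.0558 and 0.165 CPM to 464, 604 and 642 CPM (log2 fold change 12.47 ± 0.31). Klrg1, an inhibitory lectin-like receptor of effector cells, was again at 0 in naive cells and at 39.1, 30.3 and 49.2 CPM in Tconv (at least 2282-fold). Serpina3f, a protease inhibitor, with 92.9, 58.1 and 45.8 CPM, was at least 3789-fold higher. Cysltr1, a leukotriene receptor, and St6galnac1, a sialyltransferase, were at least 1539-fold and at least 1311-fold higher, though their Tconv libraries spread from 10.0 to 48.8 CPM and from 15.0 to 37.6 CPM. Lilrb4a and Lilrb4b are near-identical receptor genes, so that the division of reads between them is uncertain. Lilrb4a had 2 counts over the naive libraries and 498, 331 and 391 CPM in Tconv, a ratio of 35223 with a 95% counting interval of 9751 to 290850. Lilrb4b was at 942, 586 and 764 CPM in Tconv and at most at 0.0601 CPM in naive cells.

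Genes of activation and memory changed mostly upward: of 24 tested, 19 were called higher and 1 lower (median log2 fold change 3.18). Cd44, the hyaluronan receptor, by which the naive cells had been selected as low, rose from 59.7, 41.8 and 50.9 CPM to 386, 335 and 419 CPM. Il2rb, the IL-2 and IL-15 receptor chain, rose from 17.997, 22.4 and 21.9 CPM to 1082, 954 and 842 CPM (5.53 ± 0.15, adjusted p = 1.06e-07), and Il2ra, the high-affinity IL-2 receptor chain, from about 3 CPM in each naive library to 43.1, 42.5 and 40.0 CPM (3.70 ± 0.13). Genes of calcium- and lipid-binding proteins marked the Tconv. S100a4 went from 0.0567, 0.186 and 0.0451 CPM to 291, 343 and 374 CPM (11.79 ± 0.30), and S100a6, Anxa1, Anxa2 and Ahnak were called with log2 fold changes of 10.82, 8.72, 6.44 and 5.30. The galectin gene Lgals3 went from at most 0.261 CPM to 364, 451 and 441 CPM (11.08 ± 0.20, adjusted p = 2.94e-08). Tnfrsf4, which encodes the costimulatory receptor OX40, was higher by 4.47 ± 0.25, and Cd27, another receptor of the same family, was lower (-1.77 ± 0.14). Cd28 (0.23 ± 0.23) and Cd40lg (0.64 ± 0.12) were not called. Cd69, an early activation antigen, was at 741, 236 and 223 CPM in naive cells and at 878, 824 and 598 CPM in Tconv; it was not called with all libraries (0.94, adjusted p = 0.19) and was called without naive replicate 1 (1.74).

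**Figure D2:**
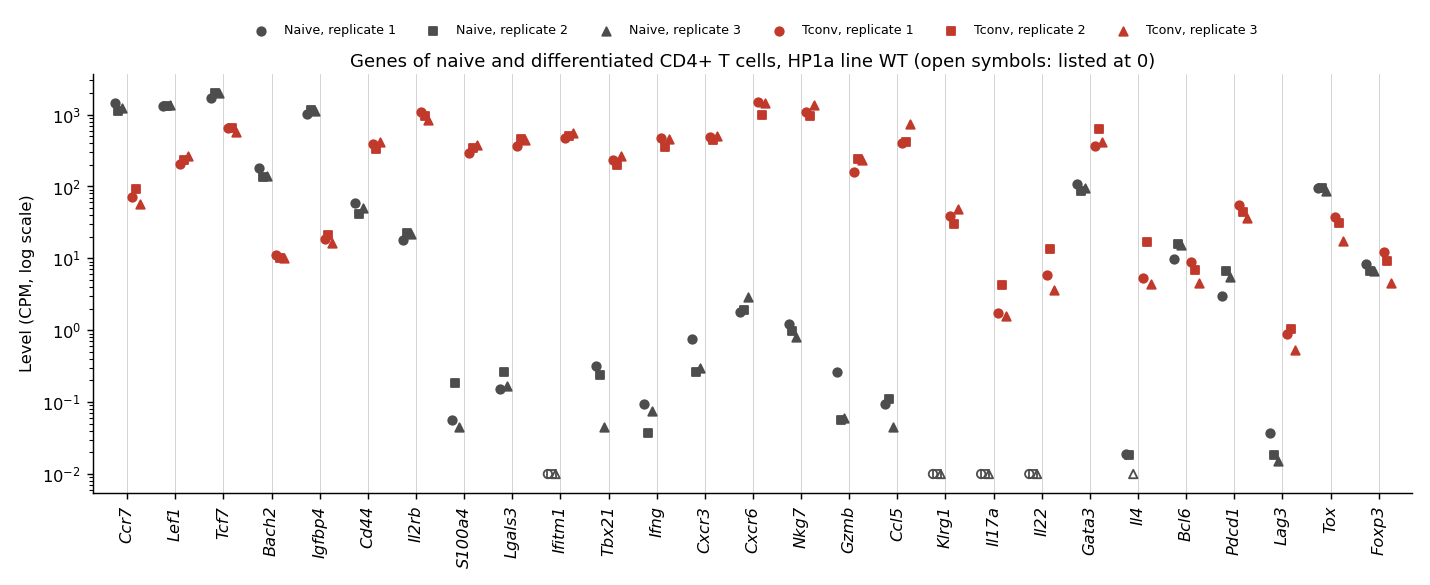
Level in CPM (log scale) of 27 genes in each library, with naive cells in grey and Tconv in red, and replicates 1, 2 and 3 as circles, squares and triangles. Open symbols are libraries in which a gene was listed at 0, drawn at the foot of the axis; Ccr7 and Bach2 lie lower in every Tconv library, Ifng and Tbx21 lie higher in every Tconv library, and the groups overlap for Foxp3.

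Th1 genes were called higher in 17 of 20 cases and lower in none (median log2 fold change 3.92). Ifng (chromosome 10, 118276951–118281797), encoding interferon-γ, was at 0.0944, 0.0372 and 0.0751 CPM in naive cells and at 478, 357 and 459 CPM in Tconv. This is a log2 fold change of 12.55 ± 0.24 (adjusted p = 2.94e-08), among the 10 highest by the rule for naming genes. Tbx21 (chromosome 11, 96988897–97006158), the gene of T-bet, went from 0.321, 0.242 and 0.0451 CPM to 235, 201 and 269 CPM (10.23 ± 0.38, adjusted p = 1.15e-06). Its textbook target Cxcr3, a receptor for interferon-induced chemokines, went from 0.755, 0.261 and 0.301 CPM to 483, 450 and 498 CPM (10.10 ± 0.33, and 10.70 without naive replicate 1). Cxcr6, a tissue-homing receptor, reached 1481, 989 and 1443 CPM (9.21 ± 0.29). The receptor chains for the Th1-inducing cytokines moved with them: Il12rb1 by 5.64, Il12rb2 by 7.32, Il18rap by 8.40 and Il18r1 by 2.31 on the log2 scale. Bhlhe40, a repressor that sustains inflammatory cytokine production, was at 10.2, 0.503 and 0.646 CPM in naive cells and at 2125, 1708 and 1850 CPM in Tconv (8.98 with all libraries and 11.66 without naive replicate 1). Tnf and Il2, the other cytokines of this list that were called, had log2 fold changes of 2.74 and 4.58. The signal transducer Stat4 did not pass the fold threshold (0.89 ± 0.10), nor did Lta (-0.43 ± 0.13).

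The cytotoxic list showed 19 of 21 genes called higher and 1 lower (median 3.23), although the cells were CD4+. Gzmb, encoding granzyme B, rose from 0.264, 0.0558 and 0.0601 CPM to 161, 242 and 236 CPM (10.74 ± 0.40, adjusted p = 1.37e-06, and 11.77 without naive replicate 1), and Nkg7, a granule membrane protein, from about 1 CPM to 1075, 955 and 1366 CPM (10.15 ± 0.24). Prf1, which encodes the pore-forming perforin, went the other way, from 43.1, 50.1 and 55.6 CPM to 17.7, 21.0 and 25.6 CPM (-1.21 ± 0.16, adjusted p = 0.000444). Gzmb was thus high in these Tconv with a lower level of the perforin gene. In WT cells of the HP1g line Prf1 was lower but not called (-0.84). Nor was it called in cells of the HP1a line without Cbx5 (-1.01, adjusted p = 0.0847, same test). Ccl5, a chemokine that draws T cells and monocytes, was at 400, 416 and 743 CPM in Tconv and at most at 0.112 CPM in naive cells (12.60 ± 0.44). NK-type receptor genes were called too: Klrc1 by 11.57, Klrk1 by 9.39 and Klrd1 by 2.25. Gzma spread widely among Tconv, at 93.9, 49.5 and 225 CPM, with replicate 3 the highest (7.78 ± 0.77). Cd8b1 was lower in Tconv, as given above, and Klrb1c, an NK cell marker, was called higher, from at most 0.0744 CPM to 3.04, 2.63 and 5.80 CPM (6.47 ± 0.58, adjusted p = 5.38e-05). The part of NK cells in the cytotoxic and NK-type receptor values was not tested.

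Genes of other helper lineages were also called higher. Of 13 Th17 genes tested, 12 were called higher and none lower. The median log2 fold change of 7.46 was 7.19 with the genes at 0 in naive cells set to their bounds. Without naive replicate 1, 13 genes were called higher and the median was 6.42. Il17a had no count in naive cells and 1.73, 4.24 and 1.60 CPM in Tconv, at least 146-fold higher, and Il22, for a cytokine of barrier defence, had 5.93, 13.6 and 3.66 CPM, at least 446-fold higher. Il1r1, an IL-1 receptor that fosters Th17 cells, had 1 count over the naive libraries and 11.7, 26.2 and 16.1 CPM in Tconv, a ratio of 3120 with a counting interval of 560 to 123250. Csf2, encoding GM-CSF, was at 0.227, 0 and 0.0150 CPM in naive cells and at 38.2, 54.7 and 20.8 CPM in Tconv (8.92 with all libraries). In each of these cytokine and IL-1 receptor genes Tconv replicate 2 was the highest.

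Of 10 Th2 genes 7 were called higher and 1 lower. Gata3 was already expressed in naive cells, at 108, 87.8 and 96.0 CPM, and rose to 363, 627 and 415 CPM (2.27 ± 0.20, adjusted p = 6.63e-05). Il4 had 2 counts over the naive libraries and 5.40, 16.8 and 4.35 CPM in Tconv, a ratio of 767 with a counting interval of 212 to 6331. Il1rl1, the receptor for IL-33, went from at most 0.135 CPM to 59.7, 66.6 and 33.0 CPM. Il4ra, through which IL-4 acts, was the member called lower (-1.58 ± 0.22).

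Follicular helper genes went both ways, with 6 of 11 called higher and 2 lower. The lineage factor Bcl6 was at 9.76, 16.0 and 15.4 CPM in naive cells and at 8.97, 6.92 and 4.57 CPM in Tconv, a log2 fold change of -1.01 ± 0.29 (adjusted p = 0.021) at the edge of the threshold. Cxcr5, the follicle-homing receptor, was higher (3.60 ± 0.31), as was Il21 with 5.49, 3.71 and 1.73 CPM in Tconv against 3 counts over the naive libraries, a ratio of 210 with a counting interval of 72.0 to 1020. Of 11 Treg genes tested, 6 were called higher and 1 lower with all libraries (median 1.79), and 8 higher and 1 lower without naive replicate 1 (median 2.73). Foxp3 (chromosome X, 7439883–7461484), the factor that defines Treg, was at 8.37, 6.70 and 6.75 CPM in naive cells and at 12.4, 9.20 and 4.51 CPM in Tconv, with overlapping groups (0.26 ± 0.34, adjusted p = 0.564). The members called with all libraries were Il2ra, Ikzf2, Nrp1, Itgae, Ebi3 and Tnfrsf18, several of which activated T cells also use, and Gpr83 was called lower (-3.63 ± 0.39).

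Genes of chemokine and lipid receptors were mostly called higher. Of 20 tested, 15 were called higher and 2 lower (median 5.70). Ccr2, a receptor for inflammatory monocyte chemokines, went from 0.340, 0.0931 and 0.135 CPM to 855, 866 and 950 CPM (12.21 ± 0.31, adjusted p = 1.06e-07, and 12.87 without naive replicate 1), a narrow range among Tconv. Other receptors varied greatly between the grafted libraries. Cx3cr1, a marker of terminal effector cells, was at 25.8, 18.7 and 83.2 CPM and S1pr5 at 4.37, 4.20 and 49.4 CPM, both highest in Tconv replicate 3. Ccr10, a skin-homing receptor, was at 0.334, 26.1 and 6.85 CPM in Tconv against 1 count over the naive libraries; without naive replicate 1, which held that count, it was not called (adjusted p = 0.0994). Cxcr4 was not called (-1.19 ± 0.67, and -0.01 without naive replicate 1), with 46.1 CPM in naive replicate 1 and 7.74 to 11.3 CPM in the other naive libraries.

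Among 16 integrin genes 10 were called higher and 3 lower. Itgb1, the β1 chain shared by the collagen and fibronectin receptors, rose from 54.6, 64.2 and 64.4 CPM to 1516, 2004 and 1329 CPM (4.73 ± 0.18, adjusted p = 5.93e-07). Its partner Itga1 had 2 counts over the naive libraries and 67.1, 55.8 and 40.5 CPM in Tconv, a ratio of 4718 with a counting interval of 1306 to 38956. Itgal and Itgb2, the chains of LFA-1, were called with smaller changes (1.26 ± 0.11 and 1.11 ± 0.09). Itgae, which encodes CD103, the receptor for epithelial E-cadherin, spread from 26.5 CPM in replicate 1 to 180 CPM in replicate 2 and 51.1 CPM in replicate 3. Itga6 (-1.79 ± 0.11), Itga5 (-5.02 ± 0.44) and Itgam (-1.46 ± 0.23) were lower.

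Inhibitory receptors and exhaustion genes gave 10 of 19 called higher and 2 lower with all libraries (median 2.02). Without naive replicate 1, 15 were called higher and 2 lower (median 3.38). Pdcd1, encoding PD-1, was at 2.98, 6.77 and 5.46 CPM in naive cells and at 56.0, 43.8 and 36.4 CPM in Tconv (3.16 ± 0.31, adjusted p = 0.000107). Entpd1, the ectonucleotidase CD39, went from at most 0.210 CPM to 51.0, 61.7 and 60.2 CPM (8.46 ± 0.24). Tigit was called with all libraries (5.54 ± 1.12) and without naive replicate 1 (7.99), its naive levels being 1.53, 0.205 and 0.0150 CPM, and Havcr2, encoding TIM-3, was called from 0, 0.168 and 0 CPM to 5.49, 7.89 and 5.06 CPM (6.79 ± 0.91). Lag3 stayed low, at 0.891, 1.03 and 0.523 CPM in Tconv (4.99 ± 0.62). Tox, a factor of exhausted cells, was lower in Tconv, with 94.9, 95.7 and 87.7 CPM in naive cells and 37.02, 31.5 and 17.6 CPM in Tconv (-1.69 ± 0.24, adjusted p = 0.000947), whereas its relative Tox2 was higher (6.49 ± 0.58). Ctla4, a brake on costimulation, was at 41.5, 4.63 and 5.32 CPM in naive cells and at 68.3, 67.4 and 60.2 CPM in Tconv. It was not called with all libraries (1.93 ± 0.92, adjusted p = 0.146) and was called without naive replicate 1 (3.71).

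Signal transducers of the T cell receptor changed little: of 20 tested, none was called higher and 1, Cblb, was called lower (-1.20 ± 0.24), and that call was lost without naive replicate 1 (-0.89). The median log2 fold change of this list was -0.06. Among its members Lck, Zap70, Lat and Lcp2 were higher by 0.46 to 0.72 on the log2 scale, under the fold threshold. Early-response genes gave 4 of 19 called higher and none lower with all libraries (median 0.35), and 11 higher without naive replicate 1 (median 1.55). Nr4a1, a nuclear receptor gene induced by receptor signals, shows the pattern. It was at 810, 83.7 and 70.6 CPM in naive cells and at 333, 336 and 187 CPM in Tconv, so that naive replicate 1 lay above all Tconv and the other naive libraries below them. Its log2 fold change was -0.17 ± 1.02 with all libraries (adjusted p = 0.906) and 1.88 without that library. Irf4, which drives effector differentiation, was at 27.3, 2.07 and 2.24 CPM in naive cells and at 21.4, 23.4 and 12.05 CPM in Tconv (0.85 with and 3.13 without the library). Batf (1.41 ± 0.16), Egr1 (1.98 ± 0.42), Fosb (1.79 ± 0.52) and Nfkbia (1.53 ± 0.46) were called with all libraries, the last pair at 2.57 and 2.17 without naive replicate 1. Myc, a driver of growth, was not called (-0.31 ± 0.14).

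**Figure D3:**
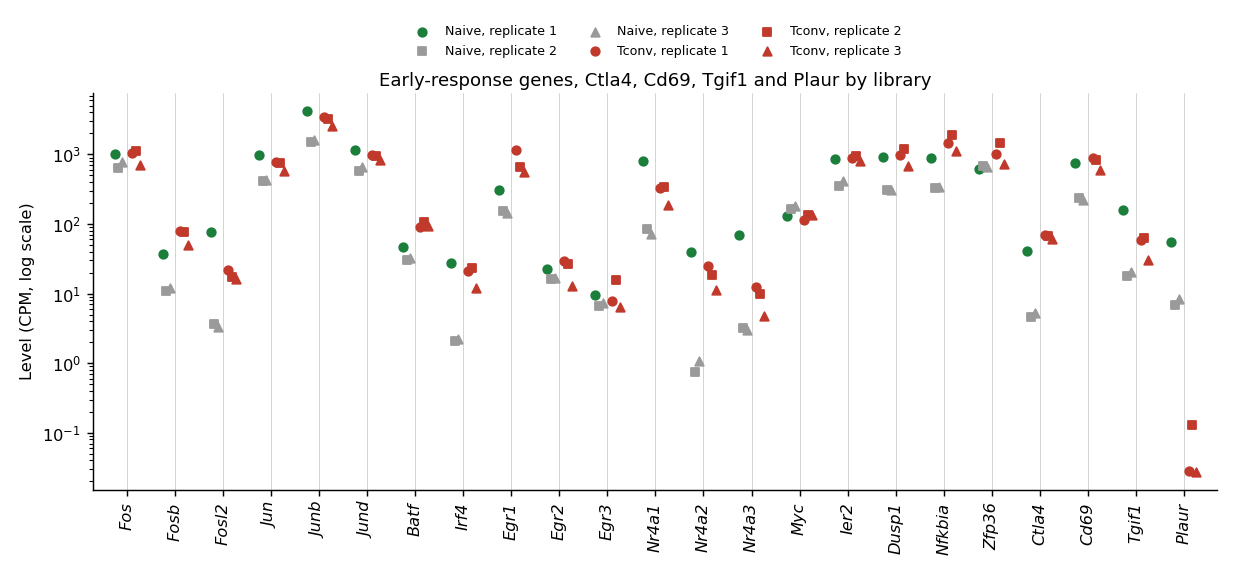
Level in CPM (log scale) by library of the 19 early-response genes tested, followed by Ctla4, Cd69, Tgif1 and Plaur, with naive replicate 1 in green, naive replicates 2 and 3 in grey and Tconv in red. Naive replicate 1 lies near or above the Tconv libraries for genes such as Nr4a1 (810 CPM) while the other naive libraries lie below them (83.7 and 70.6 CPM).

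Of 25 cytokine receptor and SOCS genes 11 were called higher and 4 lower. The feedback inhibitors Socs2 and Cish, targets of STAT5 downstream of IL-2, went from at most 0.361 CPM to 146, 115 and 142 CPM (8.64 ± 0.17, adjusted p = 2.94e-08) and from 14.4, 18.5 and 17.3 CPM to 373, 485 and 400 CPM (4.65 ± 0.15). The receptor chains Il6ra and Il6st, through which IL-6 acts, were lower (-2.83 ± 0.29 and -3.24 ± 0.33). The receptor for interferon-γ was changed in opposite directions in its chains. Ifngr1 rose from 222, 158 and 177 CPM to 791, 636 and 1098 CPM (2.18 ± 0.21), and Ifngr2 fell from 200, 105 and 104 CPM to 5.82, 33.8 and 13.5 CPM (-2.94 ± 0.70, adjusted p = 0.0199).

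Cell division genes were higher in Tconv 3 weeks after the graft. Of 33 mitosis and kinetochore genes 30 were called higher and 1 lower (median 4.29). Mki67, the proliferation antigen, was at 1.85, 0.968 and 1.58 CPM in naive cells and at 64.8, 102 and 63.2 CPM in Tconv (5.70 ± 0.30, adjusted p = 4.57e-06). Ube2c, which loads ubiquitin for the anaphase-promoting complex, had the highest log2 fold change of this list (6.44 ± 0.34), from 0.415, 0.503 and 0.316 CPM to 31.0, 50.1 and 25.7 CPM. Birc5 (6.01), Tpx2 (5.86), Ccnb2 (5.77) and Cdk1 (5.62) were called as well. Smc4, a condensin subunit, was the exception, with 549, 576 and 473 CPM in naive cells and 250, 259 and 224 CPM in Tconv (-1.12 ± 0.11). Of 30 DNA replication genes 13 were called higher and none lower (median 0.86). The largest changes were those of Mcm10 (5.66 ± 0.61), Rrm2 (4.60 ± 0.33), a subunit of ribonucleotide reductase, and Cdc6 (4.01 ± 0.45), which loads the MCM helicase, while Mcm2 and Mcm7 were not called. Tconv replicate 2 was the highest library for Mki67, Ube2c and Rrm2, with 182 CPM of Rrm2 against 85.9 and 102 CPM in the other Tconv libraries. Scaled by library totals, 9 replication genes were called higher and 1 lower.

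**Figure D4:**
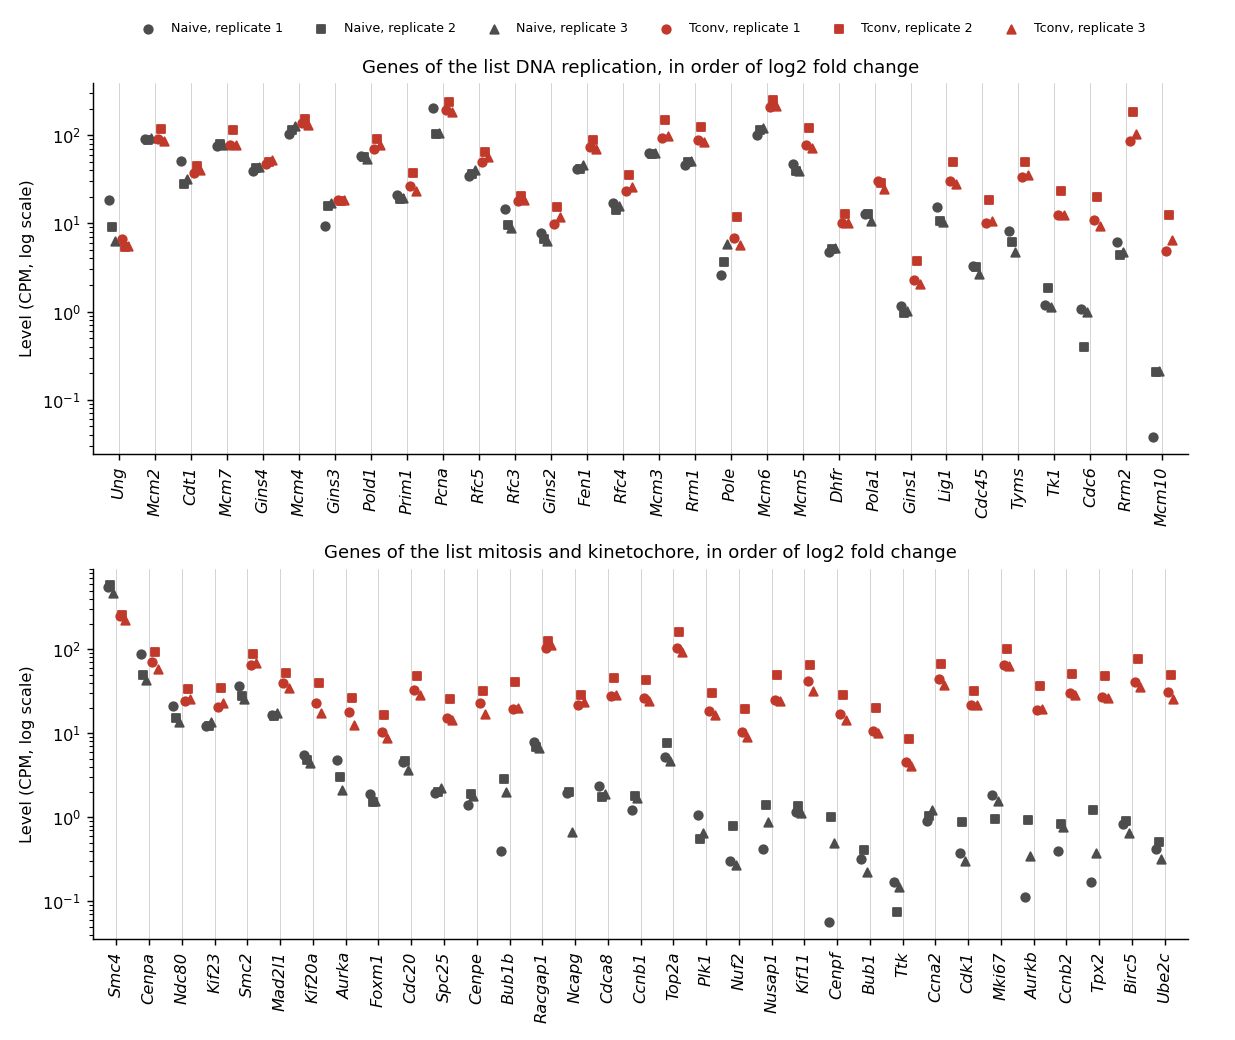
Level in CPM (log scale) by library for the 30 DNA replication genes (top) and the 33 mitosis and kinetochore genes (bottom), each in order of log2 fold change, with naive cells in grey and Tconv in red. Most mitosis genes lie higher in every Tconv library, Smc4 lies lower, and replicate 2 (squares) is the highest Tconv library for Mki67, Ube2c and Rrm2.

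As so many cell division genes moved together, their promoters are shown for the letters by which such genes are usually recognised. In the 250 bases before RefSeq start sites (GRCm38.p6, both strands), the cell cycle homology letters TTTGAA stood in 9 of 27 mitosis genes with a promoter (33.3%) and in 1371 of 10343 genes tested (13.3%). The E2F letters TTTCCCGC stood in 3 of 24 replication genes (12.5%) and in 1.94% of genes tested. The AP-1 letters TGANTCA stood in 3 of 17 activation and memory genes (17.6%), in 0 of 15 early-response genes and in 5.24% of genes tested, and the T-box letters AGGTGTGA in 0 of 17 Th1 genes and in 1.01% of genes tested. Such a match is a description and not a site. The promoters of the called genes with the highest log2 fold change that hold the letters of their list are those of Ube2c (chr2:164769679-164769928, plus strand, TTCAAA on this strand at -29) and Cdc6 (chr11:98907901-98908150, plus strand, GCGGGAAA at -138), with the match in capitals and positions counted from the start site to the first base of the match:
Ube2c: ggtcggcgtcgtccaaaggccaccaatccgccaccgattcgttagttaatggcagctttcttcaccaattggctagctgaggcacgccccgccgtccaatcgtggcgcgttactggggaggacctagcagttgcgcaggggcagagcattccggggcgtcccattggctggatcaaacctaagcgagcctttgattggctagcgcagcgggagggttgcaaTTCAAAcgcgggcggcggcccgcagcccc
Cdc6: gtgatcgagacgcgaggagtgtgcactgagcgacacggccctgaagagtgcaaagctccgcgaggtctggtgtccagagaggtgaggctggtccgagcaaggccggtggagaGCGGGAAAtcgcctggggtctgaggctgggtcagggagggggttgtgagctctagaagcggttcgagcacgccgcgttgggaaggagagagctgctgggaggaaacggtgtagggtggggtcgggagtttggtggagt

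Metabolic genes moved less than effector genes. Of 22 glycolysis genes 7 were called higher and 2 lower (median 0.70). The glucose transporter gene Slc2a3 rose from 51.8, 60.8 and 58.7 CPM to 238, 215 and 249 CPM (2.03 ± 0.10), and Hk2, an inducible hexokinase, from at most 0.491 CPM to 12.3, 8.90 and 8.996 CPM (5.31 ± 0.55, and 6.14 without naive replicate 1). Ldhb, a lactate dehydrogenase chain, and Pdk1, a kinase that restrains pyruvate dehydrogenase, were lower (-2.62 ± 0.11 and -2.81 ± 0.18), while Ldha did not pass the fold threshold (0.73 ± 0.11). Among 30 genes of cholesterol and fatty acid synthesis 2 were called higher and 2 lower, and among 23 of amino acid transport, stress response and one-carbon metabolism 2 and 3 (4 and 4 without naive replicate 1). Slc7a5, the large amino acid transporter induced by acute activation, was lower (-1.15 ± 0.22), from 41.6, 60.6 and 56.2 CPM to 25.5, 28.9 and 16.7 CPM. Of 80 cytosolic ribosomal protein genes 0 were called higher and 3 lower, Rps20, Rps28 and Rps29, and the list's median was -0.51 (1 lower and -0.37 without naive replicate 1). The median of 79 nuclear oxidative phosphorylation genes was 0.45, with Cox5a and Ndufb7 called higher, and that of the 13 mitochondrially encoded genes was -0.51 with none called.

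Interferon-stimulated genes formed no single block. Of 28 type I interferon genes 8 were called higher and 2 lower (median 0.41). Oas3, an RNA sensor, rose from 8.23, 12.8 and 11.7 CPM to 71.7, 92.6 and 67.6 CPM (2.82 ± 0.20), and Mx1, an antiviral GTPase, from at most 1.15 CPM to 20.2, 20.1 and 19.8 CPM (4.99 ± 0.51). Ifit2 was lower (-1.11 ± 0.21) and Ifit1 was not called. Of 20 interferon-inducible GTPases and interferon-γ targets 2 were called with all libraries, Gbp3 (2.39 ± 0.22) and Psmb8 (1.05 ± 0.09), both higher.

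Of 16 BCL2 family genes 8 were called higher and 2 lower. The survival genes Bcl2l1 (1.70 ± 0.10) and Bcl2a1d (3.99 ± 0.27) were higher, Bcl2a1 copies being near-identical and their counts uncertain. Bcl2 itself was at 396, 474 and 409 CPM in naive cells and at 240, 188 and 251 CPM in Tconv, under the fold threshold (-0.91 ± 0.13). Pmaip1, the death-promoting NOXA, was higher (5.94 ± 0.68, and 7.05 without naive replicate 1), and Bcl2l11, encoding BIM, was lower (-1.40 ± 0.22). In the TGF-β list 5 of 17 genes were called lower and 1 higher. Tgfbr3, a co-receptor, fell from 128, 179 and 190 CPM to 12.6, 19.3 and 9.60 CPM (-3.58 ± 0.28), and Tgfb3, a ligand, rose from at most 1.34 CPM to 23.2, 24.6 and 20.5 CPM (4.52 ± 0.26). The lower calls of Smad7 and Tgif2 were lost without naive replicate 1 (-0.65 and -0.71), which left 3 lower and 2 higher.

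The 3 genes of the HP1 proteins were not called. Cbx5 (chromosome 15, 103099505–103148419), the gene deleted elsewhere in this line and intact in these cells, was at 19.0, 24.0 and 25.0 CPM in naive cells and at 29.1, 30.8 and 26.7 CPM in Tconv (0.35 ± 0.14, adjusted p = 0.0708). Cbx3, encoding HP1γ, was at 147, 145 and 138 CPM and at 130, 151 and 121 CPM, with overlapping groups (-0.09 ± 0.10), and Cbx1, encoding HP1β, had a log2 fold change of -0.16 ± 0.09. Of 26 heterochromatin and silencing genes 3 were called higher and 2 lower (median -0.20). These are no larger parts than the 12.9% and 10.2% over all genes tested, so that the genes below do not mark the list. Uhrf1 (3.14 ± 0.31) and Hells (2.04 ± 0.13), which maintain DNA methylation during replication, and the Polycomb methyltransferase gene Ezh2 (1.07 ± 0.18) were higher. The DNA demethylation genes Tet1, from 29.9, 48.6 and 39.3 CPM to 2.73, 3.15 and 1.79 CPM (-3.94 ± 0.27), and Tet3 (-1.21 ± 0.09) were lower.

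The sort left its mark on the T cell receptor β variable genes, which is no finding. Trbv19, the segment of Vβ6, took 84.0%, 77.2% and 91.7% of all Trbv counts in Tconv and 8.74%, 8.31% and 8.18% in naive cells. The Wilson 95% interval was 83.5% to 84.5% in Tconv replicate 1, which covers counting error only. Of 23 segments tested 17 were called lower. Trbv17 was the other segment called higher, at 11.4, 9.94 and 10.6 CPM in naive cells and at 42.0, 81.8 and 19.7 CPM in Tconv (2.17 ± 0.49, adjusted p = 0.0122), and without naive replicate 1 its fold was kept but not its call (2.22, adjusted p = 0.0561).

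WT cells of the HP1g line, taken from floxed mice without Cre, were handled in the same design and share no library with these. There 3723 of 15812 genes were called (23.5%), with 15% up and 8.55% down. Of the 2067 genes called higher in the HP1a line 1633 were called higher in the HP1g line, 79.0% of the former and 68.9% of the 2371 called there. Of the 1635 called lower 821 were shared, 50.2% and 60.7% of the lists. Among 3480 genes called in the HP1a line and tested in the other, 3340 (96.0%) had the same sign. Over 15365 genes tested in both, the log2 fold changes had a Pearson r of 0.89, a description across genes, which are not independent. Ifng had a log2 fold change of 11.52 there and 12.55 here, and Mki67 6.10 and 5.70. Some genes named above were not called in the HP1g line. They include Batf (0.04 there and 1.41 here), Slc7a5 (0.45 and -1.15), Itgam (0.55 and -1.46) and Tgif2 (0.70 and -1.11). For these genes the difference between the lines was not called either, in the interaction test that follows.

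**Figure D5:**
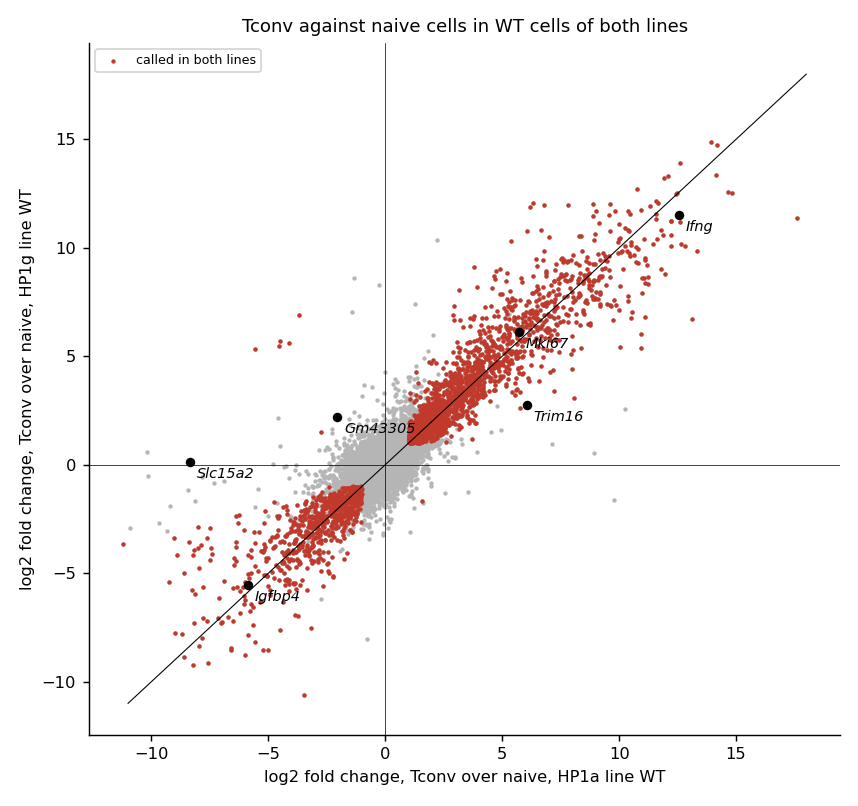
Log2 fold change of Tconv over naive cells in WT cells of the HP1a line (x axis) and of the HP1g line (y axis) for the 15365 genes tested in both, with genes called in both lines in red and the diagonal as a line. Most genes lie along the diagonal; Trim16 (6.04 and 2.74), Gm43305 and Slc15a2 lie away from it, and fitted values of genes with no counts in a group depend on the prior count of the fit.

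The difference between the lines was tested gene by gene as an interaction, and 2 of 17107 genes were called (0.0117%), 1 with a higher and 1 with a lower response (0.00585% each), with 3350 at an unadjusted p under 0.05 and 287 called by DESeq2. Trim16 (chromosome 11, 62711057–62741634), a ubiquitin ligase gene, was at 0.730, 0.541 and 0.855 CPM in naive and at 38.4, 46.9 and 56.5 CPM in Tconv of the HP1a line. In the HP1g line it was at 10.8, 9.96 and 14.7 CPM and at 91.5, 81.5 and 64.0 CPM, so that the lines differed most in naive cells (difference of log2 fold changes 3.30 ± 0.31, adjusted p = 0.00257). Gm43305 (chromosome 14, 54529898–54534949), a long non-coding RNA gene named here because so few genes were called, was at 30.6, 22.3 and 29.8 CPM in naive cells and 7.88, 7.06 and 4.84 CPM in Tconv of the HP1a line. In the HP1g line its Tconv values of 51.8, 74.0 and 51.7 CPM lay above the naive ones of 21.2, 8.06 and 9.71 CPM (-4.25 ± 0.47, adjusted p = 0.00677).

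Cells of the HP1a line without Cbx5 (KO) gave 3103 of 15773 genes called (19.7%) in their own comparison, 12.4% higher and 7.24% lower. The difference between the WT and KO responses was called for 1 of 17038 genes (0.00587%), with 834 at an unadjusted p under 0.05 and 68 called by DESeq2. The gene was Slc15a2 (chromosome 16, 36570475–36605334), a peptide transporter gene. In WT it went from 15.5, 17.7 and 11.3 CPM in naive cells to 0.0277, 0.0427 and 0.0550 CPM in Tconv. In KO it was at 15.7, 5.21 and 4.31 CPM in naive cells and at 9.11, 10.1 and 7.48 CPM in Tconv (difference -8.46 ± 0.78, adjusted p = 0.0032). The call was lost without WT Tconv replicate 2 (-8.48, adjusted p = 0.0517). Same-numbered naive WT and KO libraries deviated together, and with a replicate block over the naive libraries 3 genes were called, Slc15a2 at -8.69 (adjusted p = 0.000329). In WT cells of the HP1g line Slc15a2 varied between libraries, at 6.23, 6.57 and 0 CPM in naive cells and at 0.139, 6.42 and 7.40 CPM in Tconv, and the difference between the lines was not called (-8.48 ± 2.28, adjusted p = 0.204). Slc15a2 overlaps 2 other annotated genes, 1 of them on the other strand, Trim16 overlaps Fbxw10, and the strand setting of the counting is not given in the sources used here.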

How the data were processed

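RNA was sequenced from 36 libraries in 12 groups of 3, of which the 6 of WT naive cells and Tconv of the HP1a line were compared here. The authors prepared libraries with SMART-Seq v4 PLUS, aligned trimmed reads with STAR to GRCm39 and deposited estimated counts per gene made with Salmon. The deposited table holds 56748 genes. Counts were rounded, since 82.9% of values, zeros included, were exactly whole and the rest were not. Genes with low counts were left out with filterByExpr, libraries were scaled by TMM, and groups were compared with the quasi-likelihood test of edgeR 4.0.16 in R 4.3.3, with Benjamini-Hochberg adjustment over all genes tested. Calls needed an adjusted p under 0.05 and a log2 fold change beyond 1 in size. DESeq2 1.42.0 was an alternative. The fit was tested on simulated data. Total counts of 37029477 to 63042165 put 3 counts at 0.0476 to 0.0810 CPM before scaling. No replicate pair had identical values, and the chi-square per gene was at least 13.9 over the 6 pairs within groups.

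Genes named were the 10 at either end of the log2 fold changes among called genes that did not overlap between groups and reached a mean of 20 CPM in the higher group, leaving out receptor segments, predicted genes and pseudogenes, those called in a difference between lines or genotypes, and members of gene lists, first those called with the largest changes and a mean of at least 5 CPM, with key lineage factors whatever their value. Some genes that this rule names are not reported here. The members and lists were chosen with earlier results of these data known. Naive and Tconv libraries were isolated by different methods and are numbered in separate series in the labels, so that any difference in their preparation and the group cannot be told apart. Positions are those of GENCODE vM39 on GRCm39, and promoters those of RefSeq on GRCm38.p6, with 10343 of the genes tested matched. Same-numbered naive WT and KO libraries of the HP1a line had correlations of their deviations from the group means of 0.593, 0.247 and 0.299, those of Tconv 0.0834, 0.151 and -0.0782, so that a block over the naive libraries was added for the difference between WT and KO after the data were seen.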

Additional observations from a re-analysis of the deposited data

Results flagged for a closer look

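Trim16 was singled out because its response differed between WT cells of the HP1a and HP1g lines, with a difference of log2 fold changes of 3.30 (adjusted p = 0.00257, edgeR quasi-likelihood test). Over fits without each library in turn the difference ranged from 3.10 to 3.47. Gm43305 was singled out for the same reason, with a difference of -4.25 (adjusted p = 0.00677) and a range of -4.80 to -4.02. In KO cells of the HP1a line it was at 29.2, 25.7 and 9.37 CPM in naive cells and at 20.2, 25.5 and 31.7 CPM in Tconv. Slc15a2 was singled out because its response differed between WT and KO cells of the HP1a line, with a difference of -8.46 (adjusted p = 0.0032) and a range of -9.28 to -8.14, and it was not called without WT Tconv replicate 2 (-8.48, adjusted p = 0.0517). The cause was not tested for any of them.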

How the results depend on the processing

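Without a threshold on the fold change 7324 genes were called between Tconv and naive cells, 3891 higher and 3433 lower, and a test against a fold change of 2 called 2233, 767 of them lower. DESeq2 called 3731, RLE size factors 3701, library totals 3881, no filter on low counts 4180 and a fit of all libraries of the line 3422. With library totals 47.9% of the called genes were higher, against 55.8%. Leaving out 1 library gave 3366 to 4132 genes, 1973 to 2417 higher and 1358 to 1715 lower. Same-numbered WT Tconv and naive libraries had correlations of deviations of 0.051, -0.033 and 0.052, so that the numbers were not taken as pairs, and the fit with the replicate block called 3543 genes. For the difference between lines DESeq2 called 287 genes, no filter 131, the replicate block 2, and leaving out 1 library 2 to 24, the latter without naive replicate 1. For the difference between WT and KO DESeq2 called 68, no filter 5, the replicate block 1, a block over the naive libraries, added after the data were seen, 3, and leaving out 1 library 0 to 6. The 0 was that of edgeR without WT Tconv replicate 2, where 996 genes had an unadjusted p under 0.05, and DESeq2 was not run without single libraries. Of 182 genes named in the main comparison 129 kept their call and direction under every alternative run and 176 their direction. Log2 fold changes that turned their sign did so with the replicate block for Nr4a1 (0.78) and Tgif1 (0.34), and with library totals for Mcm2 (-0.028). Leaving out 1 library gave -0.65 to 1.88 for Nr4a1, -0.80 to 1.40 for Tgif1, -0.090 to 0.65 for Ifit1, -0.071 to 0.57 for Foxp3, -0.034 to 0.19 for Mcm2 and -0.20 to 0.032 for Il7r. The cause was not tested. With 3 libraries a group, a difference that was not called may still exist.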
